A study of Mus musculus with 6 samples.

Results

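Heat shock proteins and chaperonins are the protein-folding machinery of the cell, and here they were followed in megakaryocyte progenitors (MkP), the blood precursors that become megakaryocytes and release platelets. The genes were those with an array symbol of the Hsp, Dnaja, Dnajb, Dnajc or Cct families, plus Tcp1, each read from its brightest probe set. This gave 82 genes among 18193 genes with a single symbol on the array, and 67 of the 82 passed the filter on dim probe sets and were tested among 11625 genes. The 4 genes Hspa1a, Hspa1b, Hsph1 and Dnajb1 were kept apart as stress-inducible. All others are called constitutive here, and 63 of these were tested. That name is a listing rule, as some of them, such as Dnajb9, are also induced by stress.

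MkP were flow sorted from 2 tissues of wild-type C57BL/6 mice as cells without lineage markers or Sca-1 and with c-kit, CD150 and CD41. The fetal liver group held 3 samples of E13.5 embryos, and the bone marrow group held 3 samples of adults aged 12 to 18 weeks. The labels call the samples biological replicates but do not say how many embryos or adults each one pooled, so the p-values measure the spread between these samples, which may be partly technical. Total RNA of each sample was read on 1 Affymetrix array, and values are MAS5 signals on a linear scale, in arbitrary units that do not allow one gene's level to be set against another's.

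The heat shock response works through heat shock factors, which bind heat shock elements in front of chaperone genes when unfolded protein builds up. HSP70 proteins hold unfolded stretches of protein, J proteins (the Dnaja, Dnajb and Dnajc genes) bring clients and switch on the HSP70 ATPase, and HSP90 matures kinases and receptors. The chaperonin CCT, also called TRiC, is a double ring of different subunits that folds actin and tubulin. Megakaryocytes depend on both cytoskeletal systems to form proplatelets.

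The arrays had a median signal of 64.2 ± 1.34 in fetal liver and 76.9 ± 3.06 in bone marrow (SD, n = 3 each; two-sided exact permutation p = 0.1, the smallest that 3 against 3 allows). The signal had been scaled to the same trimmed mean of 500 on every array. Bone marrow replicate 2 stood apart from the other bone marrow arrays on the second principal component, which held 18.57% of the variance. None of 6 tested megakaryocyte markers passed the test, and 2 had a positive and 4 a negative change. Both groups carried Pf4 and Itga2b signal on every array, with all fetal liver arrays below all bone marrow arrays (14.2% of all genes). For Gp9 and Itgb3 all fetal liver arrays lay above all bone marrow arrays (13.8% of all genes). All 9 tested granulocyte and monocyte markers were lower in fetal liver, with a summed signal of 4750 to 6666 in fetal liver and 43175 to 61741 in bone marrow, and the marker Mpo had 2550 to 5004 in fetal liver and 8804 to 24686 in bone marrow. All 5 tested erythroid markers had a positive change and 3 passed the test. Their summed signal was 3237 to 8381 in fetal liver and 1366 to 1528 in bone marrow. All 3 tested macrophage markers and all 4 tested mast cell and basophil markers had a negative change, and 2 and 3 of them passed the test. Of 4 tested hepatocyte markers 3 had a positive change, and 1, Apoa1, passed the test. In bulk samples, fewer cells of a type and less RNA per cell cannot be told apart, and the part of these other cell types in the chaperone values was not tested.

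Few chaperone genes differed between the tissues. One of the 67 tested, the chaperonin subunit Cct8, was higher in fetal liver at an adjusted p below 0.05 in limma, and 2 were lower, the J proteins Dnajc6 and Dnajb4. Among all 11625 genes 3.01% were higher and 4.76% were lower in fetal liver, 7.77% in either direction, so neither count of chaperone genes lay far from the background. The median log2 change over the 67 genes was 0.16, beside 0.01 over all genes, with 40 positive and 27 negative changes (50.5% of all genes were positive). In 13 genes every fetal liver array lay above every bone marrow array (13.8% of all genes did so), in 5 every fetal liver array lay below (14.2% of all genes), and 49 overlapped.

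The arrays' centring moves these counts. With each array centred on its own median, the median change of all genes was 0.26 rather than 0.01, and 66.4% of all genes were then positive. In that scaling 8 chaperone genes passed the test upward (7.72% of all genes did) and 1 downward (3.77% of all genes). The 8 were Cct5, Cct8, Dnaja1, Dnaja2, Dnajc17, Hspa9, Hspbap1 and Hspe1, and the 1 was Dnajc6. The median change of the 67 genes was then 0.41, which is read against the 0.26 of all genes in that scaling.

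**Figure D1:**
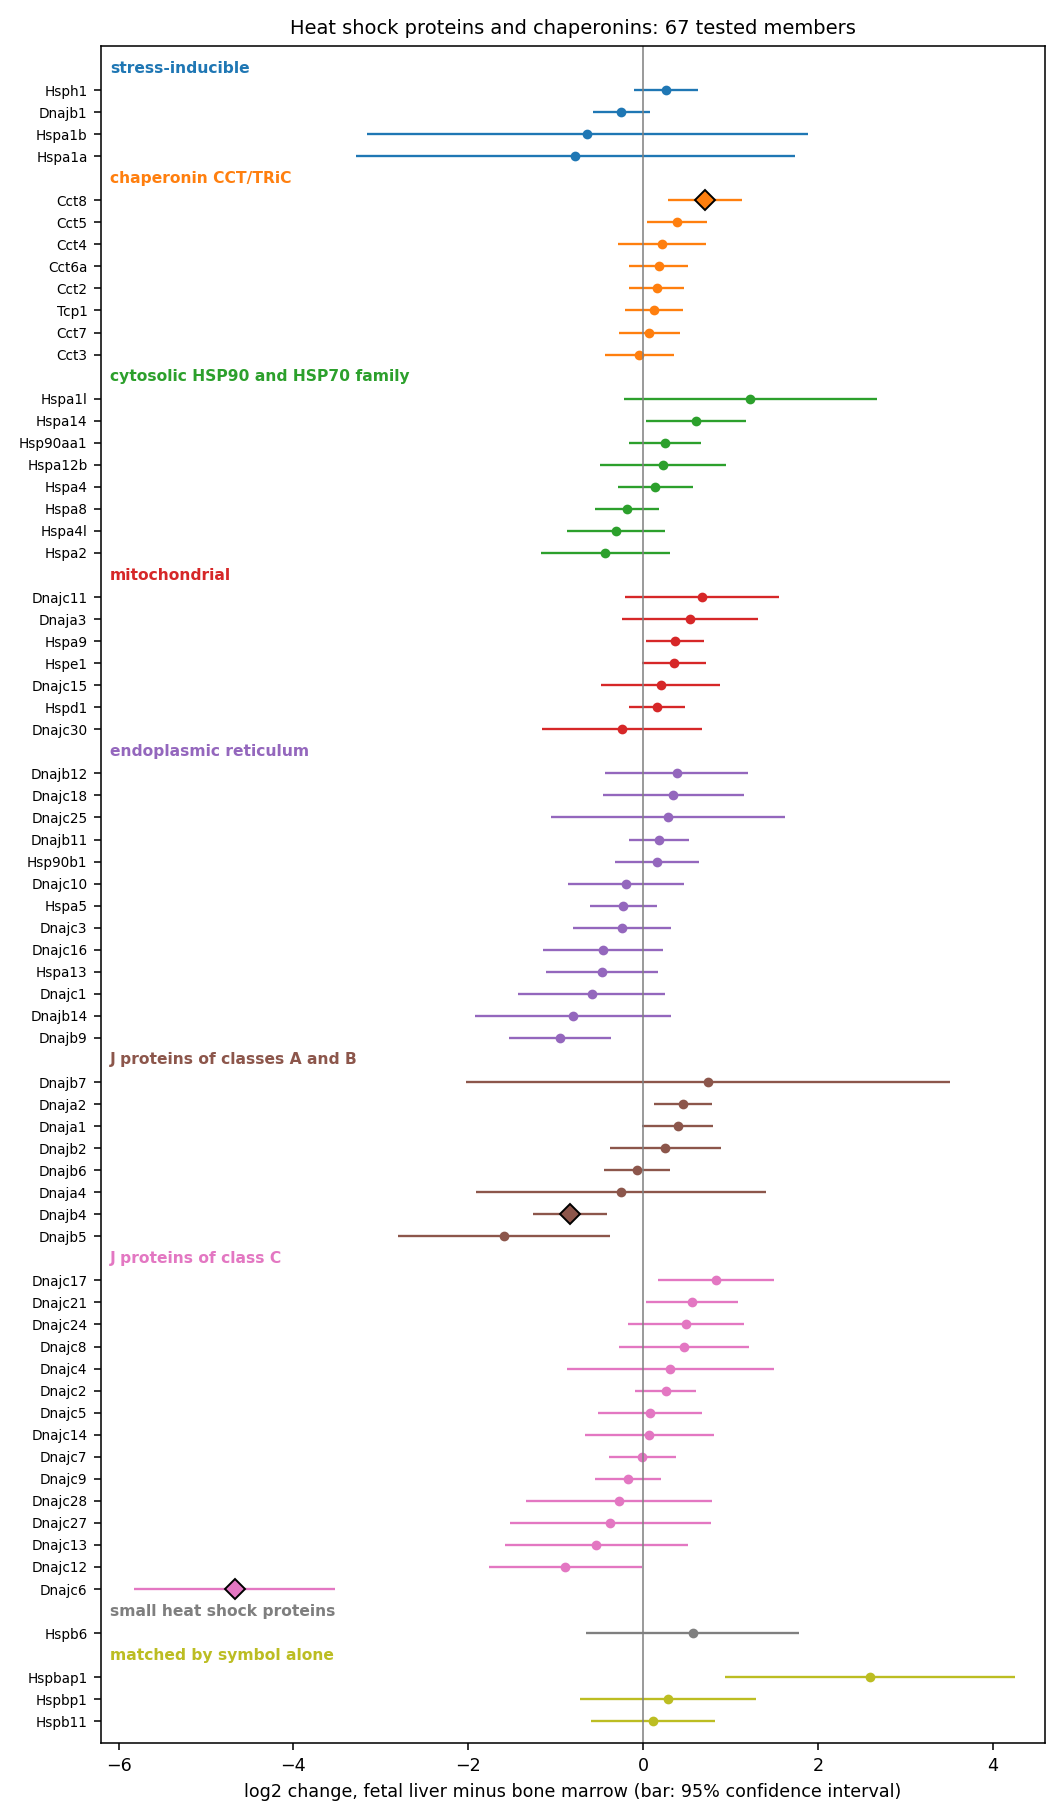
Log2 change (fetal liver minus bone marrow) of the 67 tested genes, grouped by role, with the 95% confidence interval as a bar and diamonds for genes past the threshold. Most intervals cross 0, and Dnajc6 lies far to the left at -4.67.

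Hspa1a and Hspa1b encode the classical inducible HSP70, and their signals varied more between samples of one tissue than between the tissues. Hspa1a had signals of 1262, 358 and 84.0 in fetal liver and 1913, 86.7 and 1158 in bone marrow, in the order of replicates 1 to 3. Hspa1b had 4245, 573 and 323 in fetal liver and 7240, 243 and 1688 in bone marrow. Replicate 1 was the highest of its tissue for both genes, fetal liver replicate 3 and bone marrow replicate 2 were the lowest, and the tissues overlapped. Within a tissue the highest array exceeded the lowest 15.0-fold in fetal liver and 22.1-fold in bone marrow for Hspa1a, and 13.1-fold and 29.9-fold for Hspa1b.

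The log2 change was -0.78 ± 1.13 for Hspa1a (SE, n = 3 each; limma adjusted p = 0.749, 95% confidence interval -3.29 to 1.73) and -0.64 ± 1.14 for Hspa1b (limma adjusted p = 0.797, 95% confidence interval -3.16 to 1.89). Those intervals leave room for large changes in either direction. Without bone marrow replicate 2 the changes were -2.13 and -1.92. Without bone marrow replicate 1 they were 0.08 and 0.53, and without fetal liver replicate 3 they were 0.21 and 0.12, so 1 array sets the sign.

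Their SD between arrays of one tissue, 2.16 for Hspa1a and 2.21 for Hspa1b on the log2 scale, lay at the 99.7th and 99.8th percentiles of all tested genes. Among the 1759 tested genes whose mean log2 signal was within 0.5 of that of Hspa1b, none had a larger SD. The dim J protein gene Dnajb7 had an SD of 2.22, but was above background on only 2 fetal liver arrays and 1 bone marrow array. The other Hspa1b probe sets showed the same order of arrays, with 494, 150 and 24.9 in fetal liver and 706, 64.1 and 301 in bone marrow on one, and 547, 195 and 42.6 in fetal liver and 1071, 159 and 479 in bone marrow on the other. Hspa1a and Hspa1b are near-identical copies, so which of the 2 a probe set reads is uncertain, and the probe sets are not independent measurements.

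**Figure D2:**
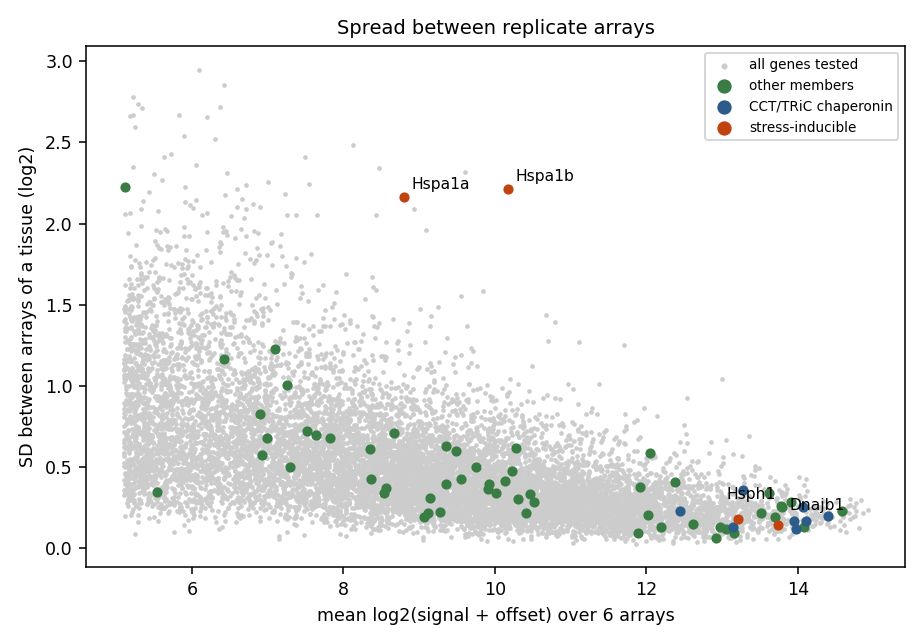
SD between replicate arrays of a tissue (log2) against the mean log2(signal + 2.87) of each of the 11625 tested genes, with chaperone genes in colour. Hspa1a and Hspa1b lie at SDs of 2.16 and 2.21, far above most genes of like signal, while the 8 chaperonin subunits have SDs from 0.12 (Cct2) to 0.36 (Cct4).

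Other array measures also differed between samples, and their order matched that of these signals only in part. The summed signal of 10 immediate-early genes, which respond to handling of cells, was 13226, 7457 and 4145 in fetal liver and 34082, 23655 and 46399 in bone marrow, in the order of replicates 1 to 3. Its order matched that of Hspa1a and Hspa1b in fetal liver, while in bone marrow only the lowest array was the same. All 10 genes had a negative change and 6 passed the test, among them Fos. Signals of Fos were 232, 140 and 46.7 in fetal liver and 1115, 1936 and 4985 in bone marrow. The Gapdh 5′ to 3′ signal ratio, a measure of RNA integrity, was 0.109, 0.449 and 0.432 in fetal liver and 0.0990, 0.177 and 0.303 in bone marrow, and was lowest on replicate 1 of both tissues. The same ratio of Actb was 0.892, 1.02 and 0.971 in fetal liver and 1.08, 1.13 and 1.06 in bone marrow, and was lowest on fetal liver replicate 1 and bone marrow replicate 3. The part of handling or RNA quality in the Hspa1a and Hspa1b signals was not tested.

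The stretch in front of both genes is shown because it carries the heat shock element letters through which the response is known to act. The 250 bases before the start sites differ at 3 positions between Hspa1a and Hspa1b (RefSeq, GRCm38.p6, both on the minus strand, chr17:34972157-34972406 and chr17:34959239-34959488). Capitals mark the match to the letters GAANNTTC, whose first base lies 104 bases before the start site in both.

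Hspa1a: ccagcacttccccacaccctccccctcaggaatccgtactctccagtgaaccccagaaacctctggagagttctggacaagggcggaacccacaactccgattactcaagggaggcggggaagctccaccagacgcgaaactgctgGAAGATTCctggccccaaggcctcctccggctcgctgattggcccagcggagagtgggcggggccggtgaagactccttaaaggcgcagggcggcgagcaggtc
Hspa1b: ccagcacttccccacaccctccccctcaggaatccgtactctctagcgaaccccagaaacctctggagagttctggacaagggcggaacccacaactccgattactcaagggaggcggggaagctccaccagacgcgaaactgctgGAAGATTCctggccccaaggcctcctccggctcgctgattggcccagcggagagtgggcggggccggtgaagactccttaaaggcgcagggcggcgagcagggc

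Hsph1 and Dnajb1, which are also stress-inducible, did not share this wide spread. Their brightest probe sets ranked the arrays of each tissue in the same order as Hspa1a and Hspa1b. The share of all genes with that order was not counted. Hsph1, an HSP110 that acts as an exchange factor for HSP70, had 11804, 10124 and 9420 in fetal liver and 9984, 7613 and 8585 in bone marrow, and the tissues overlapped by 1 pair of arrays. Its change was 0.26 ± 0.17 (SE; limma adjusted p = 0.399). Dnajb1, the J protein that works with HSP70 on stress-denatured clients, had 13706, 13031 and 11065 in fetal liver and 15766, 13631 and 15367 in bone marrow, with all but 1 fetal liver array below every bone marrow array. Its change was -0.25 ± 0.15 (SE; limma adjusted p = 0.370), and it was 0.00 with median centring. A second, dimmer Dnajb1 probe set had 604, 722 and 647 in fetal liver and 1795, 715 and 1211 in bone marrow. It ranked the arrays as Hspa1a did in bone marrow only. The SD within a tissue was 0.18 for Hsph1 and 0.14 for Dnajb1, far below that of the Hspa1 pair. Spread also falls with signal, so part of this contrast goes with brightness. The median SD was 0.43 over all tested genes and 0.22 over those with a mean log2 signal above 12, where Hsph1 and Dnajb1 lie. Among tested genes of like signal their SDs lay at the 37th and 18th percentiles.

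**Figure D3:**
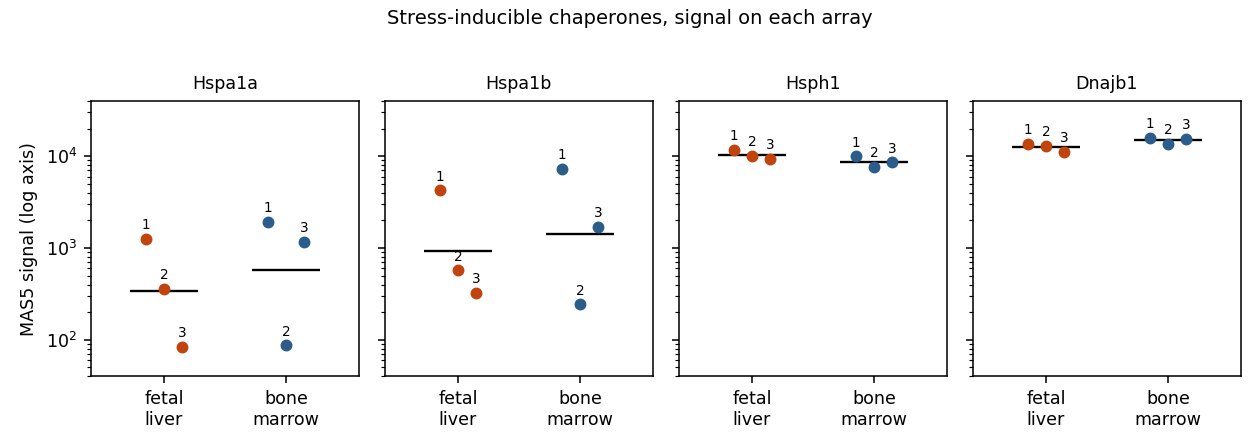
MAS5 signal (log axis) of the 4 stress-inducible genes on each array, fetal liver left and bone marrow right, with replicate numbers at the points and the geometric mean as a line. Hspa1a and Hspa1b spread over 10-fold within each tissue, while Hsph1 and Dnajb1 hold a narrow range.

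The element letters GAANNTTC, searched on both strands, were found in 23.5% of the 68 chaperone genes with a promoter window in the RefSeq table (250 bases before to 50 after the start) and in 9.04% of all 27025 genes there. The longer form, the same letters followed by NNGAA or preceded by TTCNN, was found in 5.88% of the chaperone genes and 0.662% of all genes. The longer form contains the shorter one. The CCAAT box letters ATTGG, which do not overlap the element in Hspa1a or Hspa1b, were found in 42.6% and 41.1%. The genes with the longer form were Hsph1, Dnajb6, Hspd1 and Hspe1. In Hsph1 it lies after both listed start sites. The match runs from base 37 to base 49 of the site used here, and begins at base 16 of the other. It is shown with its neighbours (chr5:149636287-149636308, minus strand, the match in capitals). Hspd1 and Hspe1 share the stretch that holds their matches, and Hspa1a and Hspa1b are near-identical copies. The shares of the chaperone genes therefore count such stretches more than once. A match describes these letters only.

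Hsph1: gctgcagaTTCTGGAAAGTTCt

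CCT/TRiC is made of Tcp1 and Cct2 to Cct8, and of its 8 tested genes 7 had a positive and 1 a negative change, with a median of 0.17. Only Cct8 passed the test. Cct8 had 7758, 6633 and 6963 in fetal liver and 5419, 3583 and 4233 in bone marrow. Every fetal liver array lay above every bone marrow array, and the change was 0.71 ± 0.19 (SE, n = 3 each; limma adjusted p = 0.0498). The call lay at the threshold and was lost in 10 of 19 alternatives, among them leaving out any array other than bone marrow replicate 1.

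Cct5 had 10417, 10365 and 10350 in fetal liver and 7930, 7000 and 9012 in bone marrow, and Cct2 had 19321, 15691 and 16002 in fetal liver and 14938, 15223 and 15438 in bone marrow. Both had all fetal liver arrays above all bone marrow arrays, with changes of 0.39 (limma adjusted p = 0.166) and 0.16 (adjusted p = 0.575) that missed the threshold. On the brightest probe sets of the other 5 subunits the tissues overlapped. Tcp1 had 22144, 16497 and 17146 in fetal liver and 16746, 16486 and 17443 in bone marrow, a change of 0.13. The changes were 0.21 for Cct4, 0.18 for Cct6a, 0.07 for Cct7 and -0.04 for Cct3.

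Dimmer probe sets of these subunits gave other values. A second Cct7 probe set had 9210, 8051 and 8207 in fetal liver and 5479, 6258 and 4919 in bone marrow. It did not overlap between the tissues, and its change was 0.62 (limma adjusted p = 0.0600 over all kept probe sets). The second brightest probe set of Cct3 had 20029, 16248 and 16343 in fetal liver and 15683, 15798 and 12933 in bone marrow, without overlap and with a change of 0.24, against the -0.04 above. For Cct4 another probe set had 9808, 8082 and 7674 in fetal liver and 6821, 5373 and 6327 in bone marrow, also without overlap, and a change of 0.46 (adjusted p = 0.163). These were chosen after their values were seen. A dim Cct3 probe set went the other way, with 27.3, 28.5 and 51.7 in fetal liver and 182, 221 and 55.0 in bone marrow. It did not overlap, and its change was -1.85 (limma adjusted p = 0.141 over all kept probe sets). A dim Cct4 probe set overlapped and had a change of -0.57. All other kept dimmer probe sets of the subunits had positive changes. With median centring the brightest probe sets of all 8 subunits were positive, with a median of 0.42. Across the 95% confidence intervals of the 8, the lowest limit was -0.44 (Cct3) and the highest 1.13 (Cct8) on the log2 scale. The intervals of Cct5 (0.04 to 0.73) and Cct8 (0.28 to 1.13) lay above 0, and the others crossed it. These intervals are not adjusted for the number of genes. Differences inside a gene's own interval are not settled by 3 arrays a tissue.

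**Figure D4:**
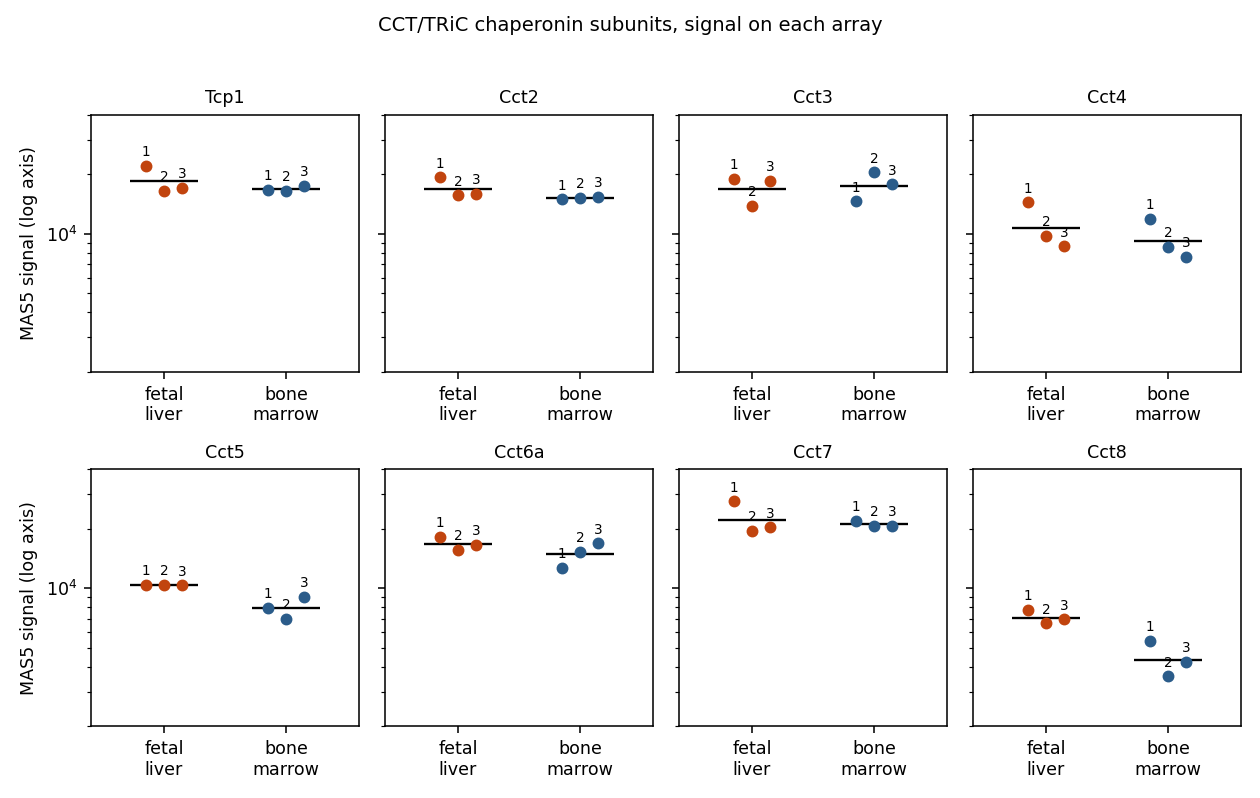
MAS5 signal (log axis) of the 8 chaperonin subunits on each array, fetal liver left and bone marrow right, with replicate numbers and geometric means. Fetal liver replicate 1 is the highest of its tissue in each panel, and Cct8 is the clearest separation. Heights are not comparable between panels.

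In mitochondria, Hspd1 (HSP60) and its lid Hspe1 (HSP10) form the folding chamber, and Hspa9 is the HSP70 that pulls proteins in. Of 7 tested mitochondrial genes 6 had a positive change, with a median of 0.36, and none passed the test. Hspd1 had 20964, 17339 and 16880 in fetal liver and 16717, 15475 and 17013 in bone marrow, a change of 0.16 ± 0.14 (SE; limma adjusted p = 0.566). Hspe1 had 17998, 13472 and 14208 in fetal liver and 10627, 11625 and 13251 in bone marrow, with every fetal liver array above every bone marrow array, and a change of 0.36 ± 0.16 (adjusted p = 0.229). For Hspa9 the signals were 10867, 9725 and 10459 in fetal liver and 8674, 7499 and 7926 in bone marrow, also without overlap, and the change was 0.37 (adjusted p = 0.170). Hspe1 and Hspa9 passed the test only with median centring.

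Hspd1 and Hspe1 are neighbours that are read in opposite directions, and the 215 bases between their start sites are shown because both genes share them and they hold the longer form of the element (RefSeq, GRCm38.p6, chr1:55087933-55088147, plus strand, toward Hspe1). Capitals mark 2 overlapping matches, from 89 to 72 bases before the Hspe1 start site. Hspd1 has 2 listed start sites, and the window of the site not used here holds no match to the element letters.

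Hspe1 and Hspd1: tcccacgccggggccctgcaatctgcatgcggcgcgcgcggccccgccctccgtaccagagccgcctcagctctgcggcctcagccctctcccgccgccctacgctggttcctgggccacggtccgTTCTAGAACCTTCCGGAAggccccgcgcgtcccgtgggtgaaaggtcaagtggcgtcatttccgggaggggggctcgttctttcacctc

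None of the 8 tested HSP70 and HSP90 family genes of the cytosol passed the test, and 5 had a positive and 3 a negative change. Hspa8, the constitutive HSP70, had 29235, 20924 and 19853 in fetal liver and 26880, 23916 and 27537 in bone marrow, with a change of -0.18 ± 0.17 (SE; limma adjusted p = 0.578). Hsp90aa1, a cytosolic HSP90, had 17766, 13776 and 14639 in fetal liver and 15438, 10162 and 13554 in bone marrow, with a change of 0.25 ± 0.18 (adjusted p = 0.470). Hspa4, an exchange factor of the HSP110 group, had a change of 0.14 (adjusted p = 0.736). In all 3 the tissues overlapped. Hspa1l had the widest change of the class, at 1.23 (adjusted p = 0.302), with 271, 257 and 176 in fetal liver and 35.3, 96.8 and 256 in bone marrow, and the tissues overlapped. Hspa14, a ribosome-associated HSP70, was the 1 gene of the class without overlap, with 6955, 6440 and 6289 in fetal liver and 5611, 5193 and 2717 in bone marrow. Its change was 0.61 ± 0.26 (SE; limma adjusted p = 0.190), and it was singled out after its values were seen.

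The largest change of all tested chaperone genes was in a J protein. Dnajc6, auxilin, which recruits HSP70 to strip clathrin from vesicles, had signals of 40.6, 71.3 and 16.3 in fetal liver and 972, 1090 and 963 in bone marrow. Every fetal liver array lay below every bone marrow array, and the change was -4.67 ± 0.52 (SE, n = 3 each; limma adjusted p = 0.000597, 95% confidence interval -5.83 to -3.52). Signal was above background on 2 of 3 fetal liver arrays. A second probe set had 1.41, 25.7 and 17.9 in fetal liver, not above background on any of the 3, and 623, 453 and 383 in bone marrow. Another probe set had 27.4, 51.7 and 28.5 in fetal liver and 1364, 1310 and 80.4 in bone marrow, where replicate 3 stood far below the other 2. The call held in all 19 alternatives, with adjusted p between 0.000155 and 0.0409. The granulocyte and monocyte markers moved in the same direction as Dnajc6, and their part in it was not tested.

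Dnajb4, a cytosolic partner of HSP70, had 2488, 3430 and 3508 in fetal liver and 5429, 5905 and 5316 in bone marrow. All fetal liver arrays lay below all bone marrow arrays, and the change was -0.84 ± 0.19 (SE; limma adjusted p = 0.0263). The call was lost in 10 of 19 alternatives, including each of the 6 that leave out an array (adjusted p 0.0518 to 0.0701). A second probe set had the same sign, with 217, 315 and 329 in fetal liver and 1147, 282 and 653 in bone marrow, overlap between the tissues and a change of -1.07 (adjusted p = 0.253 over all kept probe sets). The dimmest kept probe set had the opposite sign, with 104, 47.8 and 80.8 in fetal liver and 5.79, 86.8 and 77.6 in bone marrow, where replicate 1 was not above background.

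**Figure D5:**
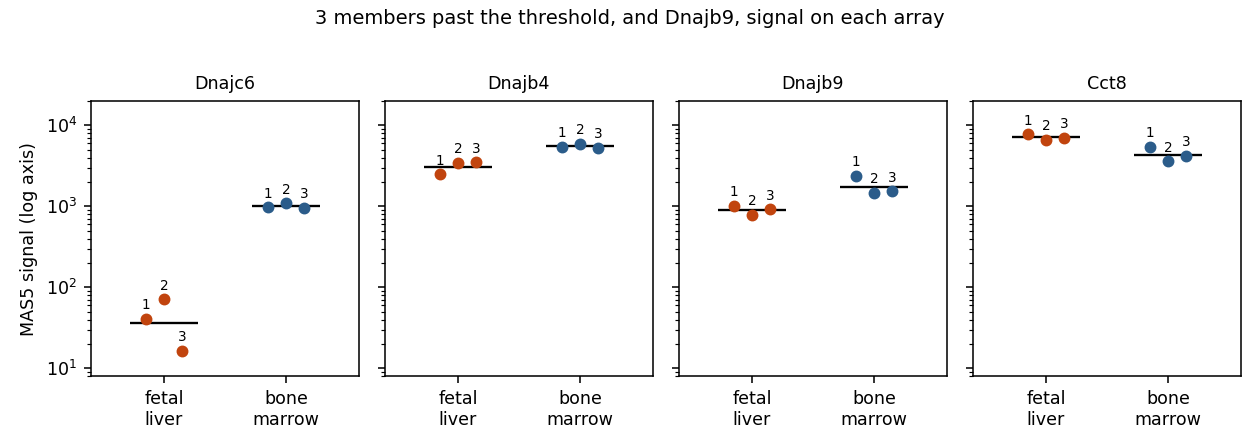
MAS5 signal (log axis) of the 3 genes past the threshold and of Dnajb9 on each array, fetal liver left and bone marrow right, with replicate numbers and geometric means. Dnajc6 is separated by over 10-fold, and the other 3 by less than 4-fold. Heights are not comparable between panels.

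The endoplasmic reticulum genes had 5 positive and 8 negative changes among 13 tested, with a median of -0.23 (0.02 with median centring), and none passed the test. Dnajb9, which brings the HSP70 Hspa5 to the stress sensor IRE1 and is induced by unfolded protein in this compartment, came closest. It had 1016, 787 and 922 in fetal liver and 2381, 1469 and 1537 in bone marrow, without overlap, and a change of -0.95 ± 0.26 (SE; limma adjusted p = 0.0537). It passed in 4 of 19 alternatives. Hspa5 (BiP) had 13266, 9729 and 9690 in fetal liver and 13478, 11038 and 13461 in bone marrow, with overlap and a change of -0.23 (adjusted p = 0.495). Hsp90b1 (GRP94) had a change of 0.16 (adjusted p = 0.724). The 6 kept probe sets of Dnajc1, a J protein of this membrane, disagreed in size and sign. Its brightest had 905, 953 and 1211 in fetal liver and 905, 2877 and 1362 in bone marrow (adjusted p = 0.408), while a second had 839, 833 and 899 in fetal liver and 1851, 1892 and 1618 in bone marrow, without overlap and with a change of -1.05. Of the 4 dimmer ones, 2 had negative changes (-1.75 and -1.89) and 2 had positive ones (1.11 and 1.09). Dnajc1 was singled out after its values were seen.

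Of the J proteins of classes A and B, Dnaja1 and Dnaja2 are the cytosolic partners of HSP70 in general folding. Dnaja2 had 9078, 9037 and 9100 in fetal liver and 6510, 6257 and 7060 in bone marrow, without overlap, and a change of 0.46 (limma adjusted p = 0.0906). Dnaja1 had 17422, 16205 and 15152 in fetal liver and 14066, 9359 and 14257 in bone marrow, also without overlap, with a change of 0.40 (adjusted p = 0.233). Both passed with median centring. A second Dnaja1 probe set had 5135, 4402 and 4239 in fetal liver and 4316, 5968 and 4100 in bone marrow. There the tissues overlapped and the change was -0.05, while the dimmest Dnaja1 probe set had a change of 0.25. Dnajb5 had 23.4, 27.9 and 21.0 in fetal liver, of which 1 was above background, and 59.8, 71.0 and 112 in bone marrow, a change of -1.59 (adjusted p = 0.110). Class C held 15 tested genes with 8 positive and 7 negative changes and a median of 0.07. Dnajc17 had a change of 0.84 (adjusted p = 0.123) and Dnajc12 one of -0.89 (adjusted p = 0.211).

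Of the small heat shock proteins 1 of 7, Hspb6, passed the filter, with a change of 0.57 (limma adjusted p = 0.604). Hspb1 (HSP27 of human, which binds unfolded protein and actin filaments) fell below the filter with 78.8, 47.4 and 66.4 in fetal liver and 7.29, 7.33 and 20.4 in bone marrow. It was above background on 3 fetal liver arrays and on no bone marrow array, and in the fit with no filter its adjusted p was 0.0870. The other 14 genes below the filter were Cct6b, Cct8l1, Dnajb3, Dnajb8, Dnajb13, Dnajc5b, Dnajc5g, Dnajc22, Hspa12a, Hspb2, Hspb3, Hspb7, Hspb8 and Hspb9. No gene below the filter was above background on all 6 arrays. The symbol rule also took Hspb11, Hspbp1 and Hspbap1, which are not themselves heat shock proteins. Hspbap1 had 158, 318 and 181 in fetal liver and 7.23, 57.3 and 67.6 in bone marrow, without overlap and with a change of 2.60 (adjusted p = 0.0624), but another probe set had the opposite sign.

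Probe sets of one gene often differed. Of 44 chaperone genes with more than 1 kept probe set, 22 had all changes of one sign and 22 had both signs. The share over all genes was not counted, so this is not shown to be particular to chaperone genes. Over all 27022 kept probe sets, 5.06% passed the threshold in either direction, and of 167 kept chaperone probe sets 5 passed, all lower in fetal liver. The share of all probe sets that were lower was not counted apart. Of these, 3 were of Dnajc6, 1 of Dnajb4 and 1 of Dnajc1.

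Genes that act with the chaperones were counted in 6 lists. In the list of heat shock factors 3 genes were tested and none passed, and these were Hsf2, Hsf4 and Hsbp1, a protein that binds heat shock factor. Hsf2, a developmental factor, had 150, 107 and 104 in fetal liver and 29.4, 125 and 81.5 in bone marrow (change 0.79, limma adjusted p = 0.483), and Hsf4 had a change of -1.17 (adjusted p = 0.325). The change of Hsbp1 was -0.09 (adjusted p = 0.858). Hsf1 was not analysed here. Of 29 co-chaperones of HSP90 and HSP70, 1 passed the test as higher in fetal liver and none as lower, beside 3.01% and 4.76% of all genes. The counts of this list and of the prefoldin, mitochondrial and endoplasmic reticulum lists are 1 each, to be read against those shares. The co-chaperone was St13 (HIP), which stabilises the HSP70 client complex, with 7285, 7464 and 7129 in fetal liver and 3973, 3489 and 5129 in bone marrow, and a change of 0.82 ± 0.18 (adjusted p = 0.0244).

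Of 17 prefoldin and chaperonin helpers, 1 passed the test, higher in fetal liver. Pfdn4, a prefoldin subunit that hands actin and tubulin to CCT, had 2012, 1221 and 1551 in fetal liver and 805, 715 and 743 in bone marrow, a change of 1.05 ± 0.26 (limma adjusted p = 0.0370). Of 15 genes of mitochondrial proteostasis, 1 passed the test as higher, the protease Htra2 at 0.76 (adjusted p = 0.0352), and the list's median was 0.49. Of 31 genes of folding and stress in the endoplasmic reticulum, 1 passed the test as lower, the oxidase Ero1b. It had 331, 202 and 249 in fetal liver and 791, 562 and 698 in bone marrow, and a change of -1.40 (adjusted p = 0.0352). St13, Pfdn4, Htra2 and Ero1b each lost the call in at least 7 alternatives.

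The proteasome, which degrades what folding fails to rescue, had the most calls of the 6 lists. All 31 tested subunits of its 20S core and 19S cap had a positive change, with a median of 0.53, and 21 had all fetal liver arrays above all bone marrow arrays (13.8% of all genes did). In all, 6 passed the test, all higher in fetal liver, beside 3.01% of all genes. Psmd6 had 6071, 4784 and 4991 in fetal liver and 2718, 2487 and 3435 in bone marrow, a change of 0.88 ± 0.20 (SE; limma adjusted p = 0.0233). Psmc5 had 3143, 3809 and 4230 in fetal liver and 1869, 1694 and 2372 in bone marrow, a change of 0.92 ± 0.21 (adjusted p = 0.0278). Psmb7 changed by 0.93 (adjusted p = 0.0376). None of the 3 overlapped between the tissues, and each lost its call in at least 5 of 19 alternatives. No test compared the lists with each other.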

How the data were processed

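RNA of 6 sorted MkP samples was read on 1-colour Affymetrix arrays. The deposited values are intensity signals. Per the submitters' processing notes the authors used MAS5, whose version the sources used here do not give. The number of arrays limits the precision.

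Symbols came from the platform annotation. Values were taken as log2(signal + 2.87), the offset being the 10th percentile of all signals, which understates changes of dim genes. Probe sets with a mean above the 40th percentile were kept, and the brightest stood for a gene. The tissues were compared in limma 3.58.1 under R 4.3.3 (lmFit and trended eBayes). Adjustment by Benjamini-Hochberg ran over 11625 genes, with a threshold of 0.05. Changes are fetal liver minus bone marrow. Background is the highest of 27 bacterial control signals on an array, 22.2 to 35.1. The fit was tested on simulated data. Array measures used exact permutation tests in scipy 1.17.1.

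Named genes were the stress-inducible and chaperonin genes, all past the threshold, the 10 brightest, the 6 with the largest change not past it, and up to 3 per list. Others were named by role with their values seen. Members and lists were chosen with earlier results of these data known. Alternatives covered offset, scaling, filter, variance model, probe set choice, a replicate block and each array left out.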

Additional observations from a re-analysis of the deposited data

How the results depend on the processing

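The count of chaperone genes higher in fetal liver, 1 in the report, was 0 with an offset of 1, no filter, no intensity trend, a robust prior or the second brightest probe set, and 2 with an offset of 16 or 50 or quantile normalization. With median centring it was 8, and leaving out an array gave 0 to 1. The count lower, 2 in the report, was 3 with an offset of 16 or 50, 1 with median centring and 1 to 2 with an array left out. All genes higher in fetal liver, 350 in the report, were 897 with median centring, 166 with no intensity trend and 102 to 320 with an array left out, and all genes lower, 553 in the report, were 317 to 451 with an array left out. Pathway genes higher, 9 in the report, were 35 with median centring, 0 with no intensity trend and 0 to 6 with an array left out. Pathway genes lower, 1 in the report, were 0 with quantile normalization, median centring or the second brightest probe set, and 0 to 2 with an array left out. The medians of all chaperone genes, the constitutive ones and the chaperonin were 0.41, 0.41 and 0.42 with median centring. The fits with an array left out also had fewer samples, and the cause of these differences was not tested. The deviations of same-numbered samples of the 2 tissues had correlations of 0.15, -0.0225 and 0.0809. These values do not settle whether the numbers pair the samples, which the labels do not say, and the main fit did not pair them. With the replicate block 522 genes were higher and 688 lower, 3 chaperone genes were higher and 3 lower, and 17 pathway genes were higher.

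Signal over background limits the dim genes, and 4 of the 67 tested chaperone genes were not above background on some array.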
